A study of Mus musculus with 26 samples.

Results

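Of 36 neuronal and synaptic genes chosen by name, 33 were measured on 26 mouse expression arrays of Group3 medulloblastoma, a cerebellar tumor that arises mostly in children, among 17097 genes read in all. Each gene was read by its brightest probe set that carried a single gene symbol, taken as the one with the highest mean over all 26 arrays. They fall into early neuron genes (7 of 8 measured), genes of cerebellar granule cells (5 of 6) and genes of other mature neurons (21 of 22). Dcx, Cbln1 and Grin1 were not analysed here, because no probe set carried their symbol alone. All groups came from C57BL/6 mice and lacked both copies of Trp53 and of Cdkn2c, including the controls, and the labels add Myc to the genotype of each Group3 group. The 7 groups were secondary Group3 tumors (3 arrays), Group3 tumors given pemetrexed with gemcitabine (3), gemcitabine (3) or pemetrexed (2), untreated Group3 tumors (5), Group3 neurospheres (7) and Trp53 Cdkn2c neurospheres (3). Neurospheres are floating cultures of neural cells. The Group3 ones are labelled as medulloblastoma cells, and the Trp53 Cdkn2c ones as granule neural progenitors, which the series dates to postnatal day P7. Pemetrexed is an antifolate and gemcitabine a nucleoside analogue that blocks DNA replication. No label gives a dose, a treatment time, how Myc was delivered, the host of the tumors or whether 2 arrays of a group are separate animals or cultures, so every p value measures only the spread between these arrays.

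Granule cell progenitors of the young cerebellum divide, leave the cycle, and then switch on neuronal genes in order. Cytoskeletal and RNA-binding genes such as Tubb3 and the Elavl family come early, and transmitter receptors and synaptic vesicle genes come as the neurons mature. Mature granule cells are glutamatergic and mark themselves with Gabra6, Cbln3, Grin2c, Slc17a7 and Rbfox3, whereas Purkinje cells and interneurons are GABAergic and use Gad1, Gad2, Calb1 or Pvalb. Many of these genes are held off outside neurons by the repressor Rest. In bulk RNA, fewer cells of a type and less RNA per cell cannot be told apart.

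Array titles carried 1 of 2 codes, dka (12 arrays) or mmm (14), whose meaning no label gives. Secondary tumors and Trp53 Cdkn2c neurospheres were all dka and drug-treated tumors all mmm, while untreated tumors (replicates 1 to 3 dka, 4 and 5 mmm) and Group3 neurospheres (1 to 3 dka, 4 to 7 mmm) had both, so every comparison below was made within a code. Array medians lay between 4.65 and 4.82 log2 units, but dka arrays and mmm neurosphere replicate 7 spanned 2.56 to 13.9, and the other mmm arrays -0.41 to 16.1. Neurosphere means of the codes were closer than their single arrays. Over all probe sets the mean of mmm neurosphere replicates 4 to 6 differed from the mean of dka neurospheres with an SD of only 0.13, and among the members by -0.43 to 0.55, while mmm neurosphere replicate 7 differed from that dka mean with an SD of 0.563 and mmm tumors from dka tumors with 0.866. Whether a processing step brought these means together is not given in the sources used here, and a neurosphere level seen under both codes is not counted as a repeat.

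**Figure D1:**
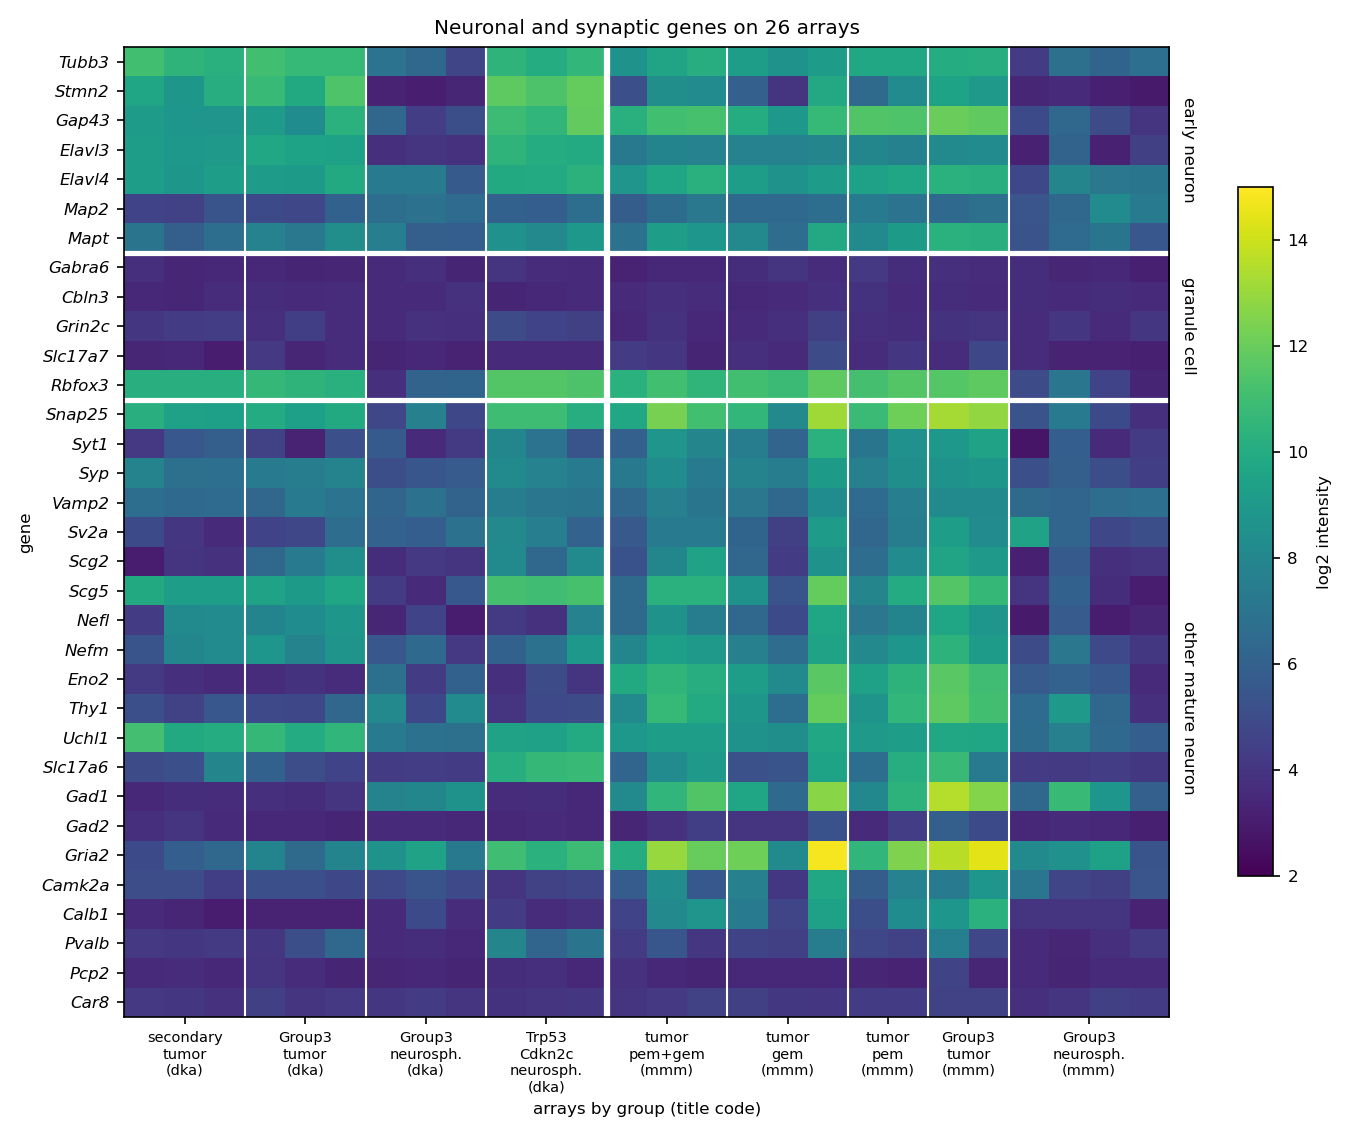
Log2 intensity of each measured member (rows, by member group) on each of the 26 arrays (columns, by group and title code, tumor groups left of neurospheres). Early neuron genes such as Stmn2 and Elavl3 are low in Group3 neurospheres and high in tumors and Trp53 Cdkn2c neurospheres, while Eno2, Gad1 and Calb1 are highest in mmm tumors.

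Group3 neurospheres had lower levels of most early neuron genes than Trp53 Cdkn2c neurospheres, and of some genes of mature neurons. Of the 33 members 15 fell and 1 rose in Group3 neurospheres relative to Trp53 Cdkn2c neurospheres (3 dka arrays each, limma adjusted p under 0.05), where 22.6% of all genes passed, 9.22% falling and 13.4% rising. The median member differed by -1.92 on the log2 scale, against 0.08 for all genes. The fall was widest among early neuron genes, of which 6 of 7 passed with a median of -4.34, followed by 7 of 21 genes of other mature neurons and 2 of 5 granule cell genes.

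Stmn2, which encodes a microtubule regulator of growing axons, had 3.22, 3.09 and 3.41 log2 units in Group3 neurospheres, against 11.80, 11.36 and 11.91 in Trp53 Cdkn2c neurospheres. Its difference of -8.45 (SE 1.004, limma adjusted p = 5.53e-06) was the widest of any member between 2 groups. Elavl3, a neuronal RNA-binding protein gene, read 3.77, 3.97 and 3.83 in Group3 neurospheres and 10.44, 10.04 and 9.96 in Trp53 Cdkn2c neurospheres (difference -6.29, SE 0.47, limma adjusted p = 2.12e-08). The growth cone gene Gap43 had 6.30, 4.36 and 5.11 in Group3 neurospheres and 10.89, 10.58 and 11.86 in Trp53 Cdkn2c neurospheres, a fall of 5.85 (SE 0.59, limma adjusted p = 7.92e-07). For Stmn2, Elavl3 and Gap43 alike, the arrays of the groups lay far apart and did not overlap. The neuronal tubulin gene Tubb3 fell by 4.34 (SE 0.56, adjusted p = 1.32e-05), and Elavl4, a relative of Elavl3, by 3.30 (SE 0.57, adjusted p = 0.000258). Mapt, which encodes tau, fell by 2.09 (SE 0.71, limma adjusted p = 0.0384), a call that 5 of the 6 fits without 1 array did not keep. Map2, the dendritic microtubule gene, went against its group, with 6.70, 6.88 and 6.53 in Group3 neurospheres and 6.06, 5.90 and 6.68 in Trp53 Cdkn2c neurospheres (difference 0.49, SE 0.52, limma adjusted p = 0.576).

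Rbfox3, which encodes the neuronal nuclear antigen NeuN, was the granule cell member that moved most. It had 3.77, 6.15 and 6.17 in Group3 neurospheres, against 11.50, 11.50 and 11.35 in Trp53 Cdkn2c neurospheres (difference -6.09, SE 0.65, limma adjusted p = 1.44e-06). Grin2c, an NMDA receptor subunit gene of mature granule cells, had 3.62, 3.88 and 3.76 in Group3 neurospheres, below the array medians. It had 5.01, 4.61 and 4.48 in Trp53 Cdkn2c neurospheres, around the array medians (difference -0.95, SE 0.22, limma adjusted p = 0.00374). Gabra6, a GABA receptor subunit gene, Cbln3, a synapse organiser gene, and Slc17a7, the vesicular glutamate transporter of mature granule cells, differed by -0.18, 0.18 and -0.20 and did not pass. Across all 26 arrays Gabra6 stayed between 3.13 and 4.16, Cbln3 between 3.34 and 3.89 and Slc17a7 between 3.05 and 4.97. The label of the Trp53 Cdkn2c cultures as granule neural progenitors was met by Atoh1, the factor that defines those progenitors, at 9.53, 9.01 and 9.998 in those cultures, while Group3 neurospheres had 3.47, 3.58 and 3.99.

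Among mature neuron genes, Scg5 and Slc17a6 fell furthest. Scg5, a chaperone gene of secretory granules, had 4.29, 3.57 and 5.60 in Group3 neurospheres and 11.16, 11.03 and 11.21 in Trp53 Cdkn2c neurospheres (difference -6.65, SE 1.20, limma adjusted p = 0.000416). Slc17a6, the vesicular glutamate transporter of young and subcortical neurons, had 4.25, 4.34 and 4.29 in Group3 neurospheres and 10.12, 10.68 and 10.78 in Trp53 Cdkn2c neurospheres (difference -6.23, SE 1.09, limma adjusted p = 0.000305). The groups did not overlap for either gene. Snap25, a membrane fusion protein gene of the synaptic vesicle cycle, fell by 4.94 (SE 1.02, limma adjusted p = 0.00138). Syp, a vesicle membrane gene, fell by 2.33 (SE 0.42, limma adjusted p = 0.00039), and by 1.15 with averaged probe sets. Scg2, the secretogranin II gene, fell by 3.61 (SE 1.0, limma adjusted p = 0.0125), Pvalb, a calcium buffer gene of interneurons and Purkinje cells, by 3.44 (SE 0.74, adjusted p = 0.00187), and the ubiquitin hydrolase gene Uchl1 by 2.65 (SE 0.39, adjusted p = 4.98e-05).

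Gad1, the GABA synthesis gene, was the 1 member that rose. It had 7.83, 7.98 and 8.65 in Group3 neurospheres, against 3.64, 3.68 and 3.51 in Trp53 Cdkn2c neurospheres (difference 4.55, SE 1.23, limma adjusted p = 0.0107), and the arrays did not overlap. The mean of both Gad1 probe sets gave a smaller rise of 2.92 (limma adjusted p = 0.0255). Gad2, the second GABA synthesis gene, stayed at 3.62, 3.58 and 3.43 in Group3 neurospheres and 3.49, 3.58 and 3.46 in Trp53 Cdkn2c neurospheres. Thy1, a surface glycoprotein gene, and Eno2, the neuronal enolase gene, differed upward by 2.45 and 1.46 but did not pass (limma adjusted p = 0.165 and 0.181), with overlapping arrays.

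Microglia and macrophage genes moved alongside. Of 19 measured, 12 fell and 0 rose in Group3 neurospheres relative to Trp53 Cdkn2c neurospheres, with list means of 3.89 to 4.06 in Group3 neurospheres and 5.72 to 6.13 in Trp53 Cdkn2c neurospheres, while of 12 astrocyte genes 4 rose and 1 fell, with means of 7.28 to 7.81 in Group3 neurospheres and 5.58 to 5.94 in Trp53 Cdkn2c neurospheres. Their part in the neuronal differences was not tested.

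**Figure D2:**
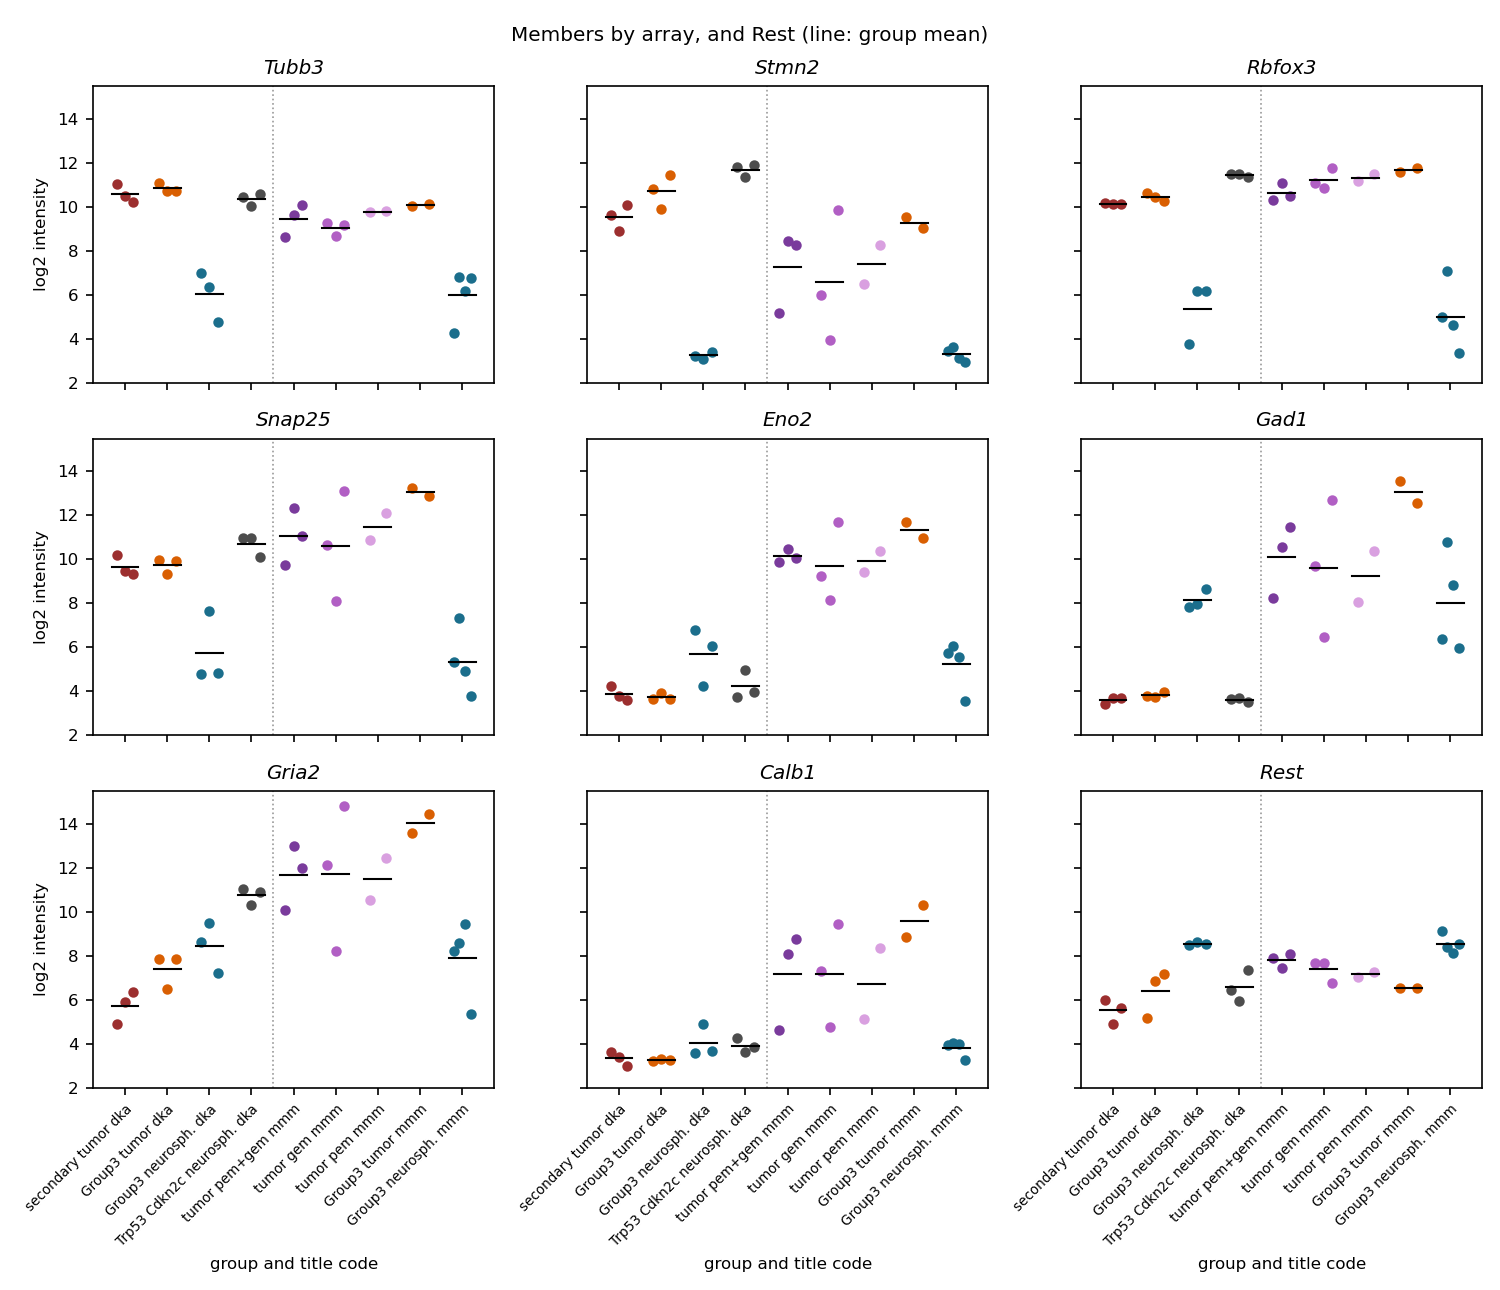
Log2 intensity of 8 members and of the repressor gene Rest on each array (points) with the group mean (line), by group and title code, dka left and mmm right of the dotted line. Tubb3, Stmn2 and Rbfox3 are low in Group3 neurospheres under both codes, Eno2, Gad1 and Calb1 are high in mmm tumors but low in dka tumors, and Rest is highest in Group3 neurospheres.

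Tumors carried early neuron genes at far higher levels than Group3 neurospheres under either code. In mmm arrays (2 tumors, 4 neurospheres) 24 of 33 members rose in Group3 tumors and 0 fell, against 10.6% of all genes rising and 11.5% falling. In dka arrays (3 tumors, 3 neurospheres) 13 members rose and 1 fell, against 8.81% and 9.74% of all genes. The median member differed by 4.08 in mmm arrays and 0.45 in dka arrays, against -0.05 and 0.01 for all genes. The dka comparison shares its neurosphere arrays with the comparison to Trp53 Cdkn2c neurospheres, so the same neurosphere levels enter both.

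Early neuron genes supplied 6 of the mmm rises and 5 of the dka rises. Stmn2 had 9.53 and 9.03 in mmm tumors, against 3.42, 3.62, 3.14 and 2.94 in mmm Group3 neurospheres (difference 6.00, SE 1.06, limma adjusted p = 0.00053). In dka tumors it had 10.82, 9.88 and 11.44, a difference of 7.48 from the dka neurospheres given above (SE 1.004, limma adjusted p = 4.32e-05). Tubb3 had 10.05 and 10.12 in mmm tumors and 4.26, 6.80, 6.18 and 6.76 in mmm Group3 neurospheres. It had 11.07, 10.72 and 10.71 in dka tumors and 6.97, 6.35 and 4.74 in dka Group3 neurospheres. No tumor array of either code overlapped the neurospheres for Tubb3 or Stmn2. Gap43 rose by 6.85 in mmm tumors (SE 0.63, limma adjusted p = 7.24e-07) and by 4.02 in dka tumors (SE 0.59, adjusted p = 0.000101). Elavl3 rose by 3.99 in mmm tumors (SE 0.50, limma adjusted p = 2e-05) and by 5.74 in dka tumors (SE 0.47, adjusted p = 2.91e-07), and Elavl4 by 3.49 (adjusted p = 0.00042) and 2.62 (adjusted p = 0.00282). Mapt had 10.31 and 10.16 in mmm tumors and 5.34, 6.53, 7.07 and 5.54 in mmm neurospheres, a rise of 4.12 (SE 0.75, limma adjusted p = 0.000682), but its dka difference of 1.34 did not pass (adjusted p = 0.217). Map2 again went the other way, with differences of -0.25 in mmm arrays (SE 0.55, limma adjusted p = 0.805) and -1.47 in dka arrays (SE 0.52, adjusted p = 0.0534), the dka one passing when dim genes were left out (adjusted p = 0.0369) or dka arrays were fitted alone (adjusted p = 0.0153).

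Of the granule cell genes only Rbfox3 passed, in both codes. It had 11.60 and 11.76 in mmm tumors, against 4.99, 7.08, 4.60 and 3.35 in mmm Group3 neurospheres (difference 6.67, SE 0.68, limma adjusted p = 2.61e-06), and 10.65, 10.43 and 10.27 in dka tumors (difference 5.09, SE 0.65, adjusted p = 2.62e-05). Slc17a7 had 3.67 and 4.84 in mmm tumors and 3.13 to 3.65 in mmm neurospheres, and its difference of 0.92 did not pass (SE 0.35, limma adjusted p = 0.0663). Without tumor replicate 4 that difference was 1.503 and passed (adjusted p = 0.0266). The remaining granule cell differences, of Gabra6, Cbln3 and Grin2c, lay between -0.17 and 0.31 under both codes. In tumors with high Rbfox3, these late granule cell genes stayed near or below the array medians.

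**Figure D3:**
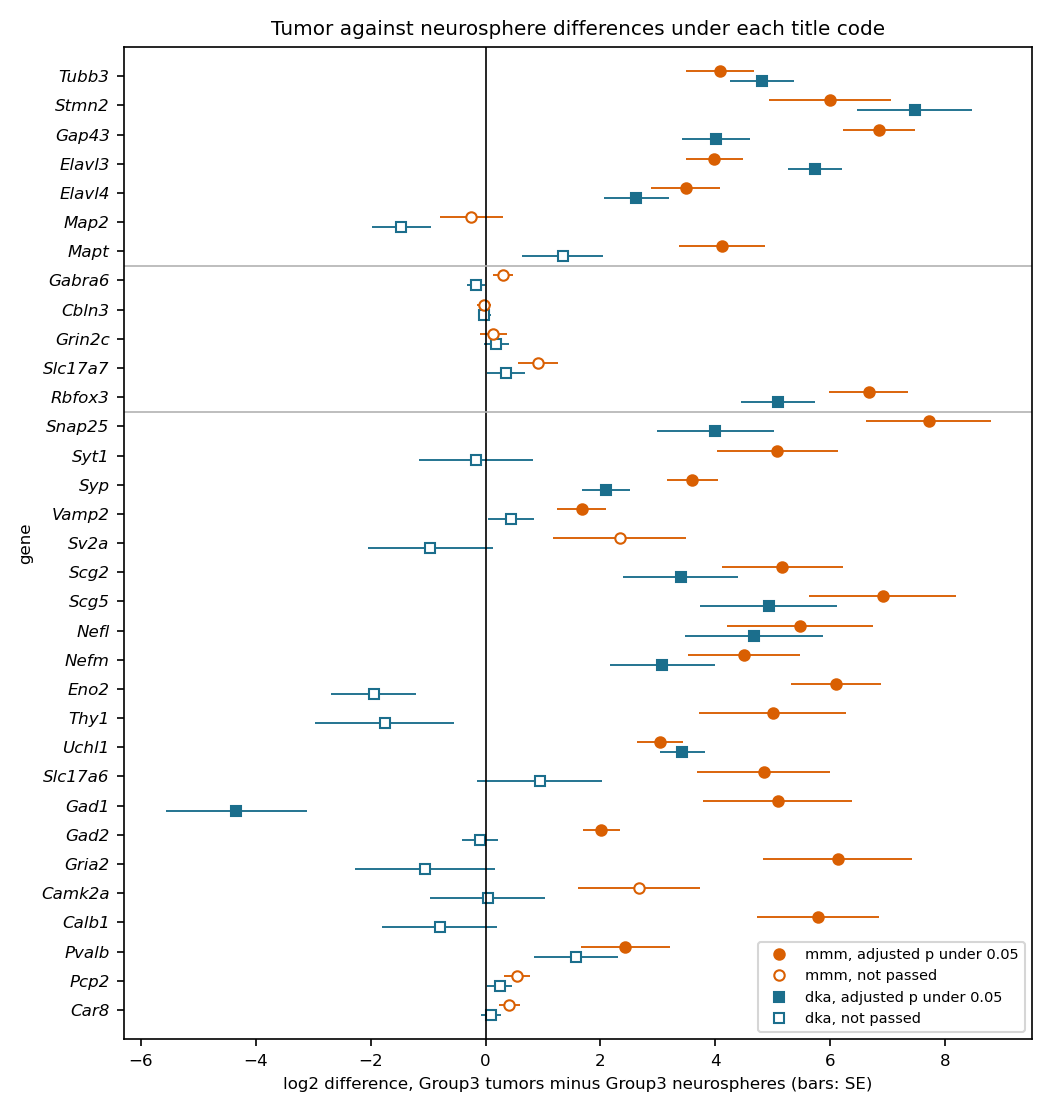
Log2 difference of Group3 tumors minus Group3 neurospheres for each member within mmm arrays (circles) and within dka arrays (squares), with moderated standard errors as bars and filled symbols for limma adjusted p under 0.05. Early neuron genes other than Map2 lie right of 0 under both codes, and Eno2, Thy1, Gad1, Gria2 and Calb1 lie right of 0 in mmm arrays and left of it in dka arrays.

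Mature neuron genes split the codes apart: 17 of 21 rose in mmm tumors, and 7 rose and 1 fell in dka tumors. Among genes of vesicle release, Snap25 had 13.23 and 12.89 in mmm tumors and 5.33, 7.33, 4.92 and 3.78 in mmm neurospheres, a rise of 7.72 (SE 1.08, limma adjusted p = 6.02e-05). In dka arrays it had 9.98, 9.34 and 9.91 in tumors and 4.76, 7.65 and 4.81 in neurospheres, a rise of 4.003 (SE 1.02, adjusted p = 0.00926). Syp, which marks the vesicle membrane, rose by 3.60 in mmm tumors (SE 0.44, limma adjusted p = 1.72e-05) and 2.09 in dka tumors (SE 0.42, adjusted p = 0.0015), and by 1.85 and 1.10 when both of its probe sets were averaged. Syt1, the calcium sensor of transmitter release, behaved otherwise. It had 8.93 and 9.47 in mmm tumors and 2.72, 5.86, 3.57 and 4.32 in mmm neurospheres (difference 5.08, SE 1.06, limma adjusted p = 0.00191, and 3.15 with averaged probe sets), but 4.50, 3.27 and 5.17 in dka tumors and 5.70, 3.56 and 4.19 in dka neurospheres (difference -0.17, SE 0.997, adjusted p = 0.941). Vamp2, a vesicle fusion gene, rose by 1.68 in mmm tumors (limma adjusted p = 0.00731), a call lost without either tumor array or with averaged probe sets, and Sv2a, a vesicle glycoprotein gene, passed under neither code.

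Both dense-core granule genes rose under both codes. Scg5 had 11.52 and 10.65 in mmm tumors, against 3.94, 6.06, 3.69 and 2.98 in mmm neurospheres (difference 6.92, SE 1.27, limma adjusted p = 0.000738), and 9.49, 9.10 and 9.65 in dka tumors (difference 4.93, SE 1.20, adjusted p = 0.0068). Scg2 rose by 5.17 in mmm tumors (SE 1.06, limma adjusted p = 0.00172) and by 3.40 in dka tumors (SE 1.0, adjusted p = 0.0216), the dka call lost in 4 of 6 fits without 1 array. The axonal neurofilament genes rose too, Nefl by 5.48 in mmm tumors (adjusted p = 0.00421) and 4.67 in dka tumors (adjusted p = 0.00976), and Nefm by 4.50 (adjusted p = 0.00248) and 3.08 (limma adjusted p = 0.0227). Without tumor replicate 4 neither passed in mmm arrays, and 3 of the 6 fits without 1 array lost the dka call of Nefm. Uchl1 rose by 3.04 in mmm tumors (limma adjusted p = 4.08e-05) and 3.43 in dka tumors (adjusted p = 7.24e-06).

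Eno2, Thy1, Gad1 and Gad2 rose in mmm tumors, and none of them rose in dka tumors. Eno2 had 11.68 and 10.99 in mmm tumors and 5.75, 6.07, 5.56 and 3.54 in mmm neurospheres (difference 6.11, SE 0.79, limma adjusted p = 2.67e-05). In dka arrays it had 3.64, 3.93 and 3.66 in tumors and 6.79, 4.24 and 6.05 in neurospheres, a difference of -1.95 that did not pass (SE 0.74, adjusted p = 0.0756, and 0.0312 with dka arrays fitted alone). The mmm tumors lay above every mmm neurosphere, and the dka tumors below every dka Group3 neurosphere. Gad1 had 13.57 and 12.59 in mmm tumors and 6.38, 10.78, 8.84 and 5.98 in mmm neurospheres (difference 5.09, SE 1.30, limma adjusted p = 0.00806). In dka tumors it had 3.78, 3.71 and 3.94 and fell by 4.34 relative to dka neurospheres (SE 1.23, adjusted p = 0.0176). That fall did not pass without tumor replicate 1 or neurosphere replicate 3, nor did the mmm rise without tumor replicate 4 (adjusted p = 0.101) or with mmm arrays fitted alone. Thy1 rose by 5.004 in mmm tumors (limma adjusted p = 0.00806, not passed without either tumor array) and differed by -1.76 in dka tumors (adjusted p = 0.367). Gad2 had 5.93 and 4.92 in mmm tumors, against 3.51, 3.55, 3.44 and 3.15 in mmm neurospheres (difference 2.02, SE 0.33, limma adjusted p = 0.000239), and 3.48, 3.50 and 3.36 in dka tumors. Slc17a6 had 10.79 and 7.37 in mmm tumors and 4.09 to 4.34 in mmm neurospheres (difference 4.84, limma adjusted p = 0.00503, and 0.177 without tumor replicate 4), but its dka difference of 0.95 did not pass.

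Among postsynaptic and Purkinje cell genes, Gria2 and Calb1 rose in mmm tumors and did not pass in dka tumors. Gria2, an AMPA receptor subunit gene, had 13.61 and 14.46 in mmm tumors and 8.20, 8.57, 9.45 and 5.36 in mmm neurospheres, a rise of 6.14 (SE 1.30, limma adjusted p = 0.00217). In dka tumors it had 7.85, 6.51 and 7.84, which overlapped the 8.62, 9.51 and 7.24 of dka neurospheres. Calb1, the calbindin gene of Purkinje cells, had 8.83 and 10.32 in mmm tumors and 3.94, 4.01, 3.97 and 3.26 in mmm neurospheres (difference 5.78, SE 1.06, limma adjusted p = 0.000725). It had 3.22, 3.31 and 3.24 in dka tumors. Averaged over all Calb1 probe sets the mmm rise was 2.10 (adjusted p = 0.000583), the dimmer ones rising by 1.02, 1.26 and 0.33. Pvalb had 7.61 and 4.74 in mmm tumors and 3.42 to 4.19 in mmm neurospheres, a rise of 2.44 (SE 0.78, limma adjusted p = 0.0298) that was 1.004 and did not pass without tumor replicate 4 (adjusted p = 0.561) and was 3.87 without tumor replicate 5 (adjusted p = 0.0102). It also did not pass with mmm arrays fitted alone or without neurosphere replicate 5. Camk2a, a postsynaptic kinase gene, differed by 2.68 in mmm arrays without passing (limma adjusted p = 0.0793). The Purkinje cell genes Pcp2 and Car8 stayed between 3.31 and 4.67 and between 3.78 and 4.57 on all arrays and passed in no comparison with every array in the fit.

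The difference between the codes was itself tested, as the mmm tumor-minus-neurosphere difference minus the dka one. It passed for 8 of 33 members, all higher in mmm, where 9.17% of all genes passed, 4.36% in that direction and 4.8% in the other. The 8 were Gad1 (9.43, SE 1.79, limma adjusted p = 0.00505), Eno2 (8.06, SE 1.08, adjusted p = 0.000576), Gria2 (7.19, SE 1.78, adjusted p = 0.0187), Thy1 (6.76, SE 1.76, adjusted p = 0.0239), Calb1 (6.58, SE 1.46, adjusted p = 0.0111), Syt1 (5.25, SE 1.45, adjusted p = 0.0312), Gap43 (2.83, SE 0.86, adjusted p = 0.0456) and Gad2 (2.11, SE 0.45, adjusted p = 0.00915). With averaged probe sets the difference was 2.35 for Calb1 and 3.45 for Syt1, and both passed. The Gap43 call was lost in 9 of 17 alternatives, each a fit without 1 array, and the Thy1 call in 5 of 17. Eno2 and Gad1 kept theirs in all 17. Among the early neuron genes 1 of 7 passed, against 7 of 21 mature neuron genes and 0 of 5 granule cell genes. The count fell to 3 without mmm tumor replicate 4 or without replicate 5, and to 5 without dka tumor replicate 2 or dka neurosphere replicate 1. Code, tumor set and any processing difference between them cannot be told apart.

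Between dka tumors and Trp53 Cdkn2c neurospheres the count of members that passed did not stand out from that of all genes. Relative to those neurospheres 3 of 33 members fell in dka tumors and 0 rose, against 6.45% of all genes falling and 9.15% rising, and the median member differed by -0.49. Slc17a6 had 6.03, 5.05 and 4.64 in dka tumors and fell by 5.29 relative to Trp53 Cdkn2c neurospheres (SE 1.09, limma adjusted p = 0.00226). Gap43 fell by 1.83 (SE 0.59, limma adjusted p = 0.0409), and Grin2c by 0.76 (SE 0.22, adjusted p = 0.0245). The Gap43 call was lost in 6 of 12 alternatives, with dka arrays fitted alone and in 5 of 6 fits without 1 array (highest limma adjusted p = 0.179), and the Grin2c call in 4 of 11 (highest 0.125). Over progenitor genes the separation was wide: 9 of 10 measured genes of granule progenitors fell in dka tumors, Atoh1 by 5.27 (limma adjusted p = 8.47e-07). Of the 3 members only Slc17a6 passed without tumor replicate 1 or without Trp53 Cdkn2c neurosphere replicate 1. Gria2, with 7.85, 6.51 and 7.84 in dka tumors and 11.03, 10.32 and 10.90 in Trp53 Cdkn2c neurospheres, differed by -3.35 and did not pass (limma adjusted p = 0.0717), although its arrays did not overlap. It passed with dka arrays fitted alone (adjusted p = 0.00375), with averaged probe sets (0.0169), with quantile normalization (0.0454) and without dim genes (0.0478). With dka arrays fitted alone Elavl3 (limma adjusted p = 0.0438), Scg5 (0.0199) and Pvalb (0.0376) also passed as lower in dka tumors. Nefl ran the other way, at 7.88, 8.31 and 8.89 in dka tumors and 4.22, 3.83 and 7.77 in Trp53 Cdkn2c neurospheres (difference 3.09, limma adjusted p = 0.0911).

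Secondary tumors were not told apart from dka primary tumors by any member. None of the 33 passed, with 1 at an unadjusted limma p under 0.05, where 0.538% of all genes passed, 0.263% higher and 0.275% lower. Members were lower in 25 of 33 cases with a median of -0.25, against 9768 of all 17097 genes lower and a median of -0.05. Scg2 came nearest, with 3.07, 3.94 and 3.86 in secondary tumors, against 6.36, 7.30 and 8.43 in primary tumors (difference -3.74, SE 1.0, limma adjusted p = 0.0949). It passed when only dka arrays were fitted (adjusted p = 0.0331). Early neuron genes stayed high, as with Stmn2 at 9.64, 8.88 and 10.11 and Tubb3 at 11.06, 10.47 and 10.23 in secondary tumors. Nefl was uneven, with 4.24 in secondary tumor replicate 1 and 8.17 and 8.30 in replicates 2 and 3.

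Set against dka neurospheres, which also served the primary tumors, 10 members rose in secondary tumors and 2 fell, where 10.2% of all genes rose and 14.5% fell. Tubb3 rose by 4.57, Stmn2 by 6.30, Gap43 by 3.66, Elavl3 by 5.20, Elavl4 by 2.36 and Rbfox3 by 4.78 (limma adjusted p between 4.62e-07 and 0.0043). Of mature neuron genes only Snap25 (3.92), Syp (1.67), Scg5 (4.99) and Uchl1 (3.36) rose, with limma adjusted p of 0.00762, 0.00568, 0.00436 and 4.99e-06. Syp rose by 0.83 with averaged probe sets. Gad1 had 3.43, 3.68 and 3.67 in secondary tumors and fell by 4.56 (SE 1.23, limma adjusted p = 0.00959, and -2.85 with averaged probe sets), and Map2 had 4.63, 4.56 and 5.40 and fell by 1.84 (SE 0.52, adjusted p = 0.0122). Secondary tumors carried early neuron genes without Gad1, Eno2 or Calb1, as the dka primary tumors did. In the same comparison 16 of 19 microglia and macrophage genes and 14 of 17 endothelium genes rose and 0 fell, while 6 of 12 astrocyte genes fell and 0 rose. The microglia and macrophage mean was 6.08 to 7.43 in secondary tumors and 3.89 to 4.06 in dka Group3 neurospheres, and the astrocyte mean 4.86 to 5.50 and 7.28 to 7.81 in the same groups. Their part in the neuronal differences of secondary tumors was not tested.

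Drug-treated tumors read lower than the 2 untreated mmm tumors in nearly every member, and no member passed. Under pemetrexed with gemcitabine 32 of 33 members were lower with a median difference of -1.18, under gemcitabine 31 of 33 with -1.19, and under pemetrexed 30 of 33 with -1.30, while 7760, 7131 and 7215 of all 17097 genes were lower. The share of all genes called was 0.076% for the combination (0.0526% higher, 0.0234% lower), 0% for gemcitabine and 0% for pemetrexed (13, 0 and 0 genes). At an unadjusted limma p under 0.05 there were 6, 10 and 5 members and 1350, 1472 and 807 genes. All 3 comparisons share the same 2 untreated tumors, so their members' directions are not separate results.

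Treated arrays differed widely among themselves. Gad1 had 8.22, 10.57 and 11.47 under the combination, 9.68, 6.46 and 12.69 under gemcitabine and 8.08 and 10.39 under pemetrexed, against 13.57 and 12.59 in untreated mmm tumors. Stmn2 had 5.15, 8.42 and 8.26 under the combination, 6.00, 3.93 and 9.86 under gemcitabine and 6.48 and 8.28 under pemetrexed, against 9.53 and 9.03 untreated. Gemcitabine replicate 3 lay within or above the untreated range for both, and gemcitabine replicate 2 was lowest of the treated arrays. Gad2 came closest to a call under the combination and under pemetrexed. It had 3.42, 3.83 and 4.39 under the combination (difference -1.55, SE 0.34, limma adjusted p = 0.144), 3.96, 3.97 and 5.25 under gemcitabine (difference -1.03, adjusted p = 0.434) and 3.58 and 4.39 under pemetrexed (difference -1.45, adjusted p = 0.796), against 5.93 and 4.92 untreated. Gap43 had 10.03, 8.95 and 10.70 under gemcitabine, against 12.015 and 11.82 untreated, and did not pass either. Without gemcitabine replicate 3, 3 members passed as lower under gemcitabine: Stmn2 (-4.32, limma adjusted p = 0.0169), Gad1 (-5.01, adjusted p = 0.0493) and Gad2 (-1.47, adjusted p = 0.0196). Without untreated replicate 5 only Pcp2 passed, under gemcitabine (-1.21, limma adjusted p = 0.0275) and under pemetrexed (-1.31, adjusted p = 0.033), where the untreated level was then the single value of 4.67.

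Early neuron and granule cell members differed less between treated and untreated tumors than the mature ones in median. Under the combination the medians were -0.68 for early neuron, -0.33 for granule cell and -1.57 for other mature neuron genes, under gemcitabine -1.23, -0.04 and -1.84, and under pemetrexed -0.48, -0.21 and -1.45. In untreated mmm tumors Gabra6, Cbln3, Grin2c and Slc17a7 averaged 3.73, 3.63, 3.96 and 4.25, below the array medians of 4.775 and 4.807. These granule cell genes had little room to fall, so their small differences do not show that they were spared. Rbfox3 kept 10.31, 11.07 and 10.51 under the combination, 11.09, 10.85 and 11.76 under gemcitabine and 11.16 and 11.51 under pemetrexed, against 11.60 and 11.76 untreated. Every treated Rbfox3 value stayed above every Group3 neurosphere.

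The level of mature neuron genes in mmm tumors moved with genes of mature glia. The mean over the 21 mature members was 9.50 in gemcitabine replicate 3, 9.50 and 8.96 in untreated replicates 4 and 5, 8.41, 8.07 and 6.603 in combination replicates 2, 3 and 1, 8.34 and 7.03 in pemetrexed replicates 2 and 1, and 7.31 and 5.81 in gemcitabine replicates 1 and 2. On the same arrays the mean of 12 oligodendrocyte genes was 8.88 in gemcitabine replicate 3, 9.13 and 7.44 in the untreated tumors, 7.90, 7.06 and 5.58 under the combination, 7.25 and 6.67 under pemetrexed, and 6.65 and 5.80 in gemcitabine replicates 1 and 2. Arrays high in one were mostly high in the other. The early neuron members varied in a similar order over these arrays. Their mean was 7.29 in gemcitabine replicate 2, 7.54 in combination replicate 1 and 8.13 in gemcitabine replicate 1. It was 9.04 in gemcitabine replicate 3 and 9.56 and 9.47 in untreated replicates 4 and 5. The astrocyte mean ran from 6.83 in gemcitabine replicate 2 to 9.56 in gemcitabine replicate 3 and the mitosis mean the other way, at 9.30 and 8.62 in the same arrays. Relative to mmm neurospheres, 9 of 12 oligodendrocyte genes, 19 of 19 microglia and macrophage genes and 3 of 12 astrocyte genes rose in mmm tumors and 0, 0 and 1 fell, while 9 of 20 mitosis genes fell and 0 rose. In dka tumors 2 of 12 oligodendrocyte genes and 13 of 19 microglia and macrophage genes rose and 1 and 0 fell, and 4 of 12 astrocyte genes fell with 0 rising. Of 17 endothelium genes 11 rose in mmm tumors and 14 in dka tumors, and 0 fell under either code. The myelin gene Mbp had 12.64 and 11.33 in untreated mmm tumors and 4.17 to 5.31 in mmm neurospheres, and Mog, another myelin gene, had 6.76 and 4.91 in those tumors and 2.98 to 3.36 in those neurospheres. In dka tumors Mbp was high in replicate 3 (11.58) and lower in replicates 1 and 2 (8.48 and 6.20), and that replicate had a mature neuron mean of 6.40, next to 6.02 and 5.89 in replicates 1 and 2. Their part in the neuronal differences was not tested.

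**Figure D4:**
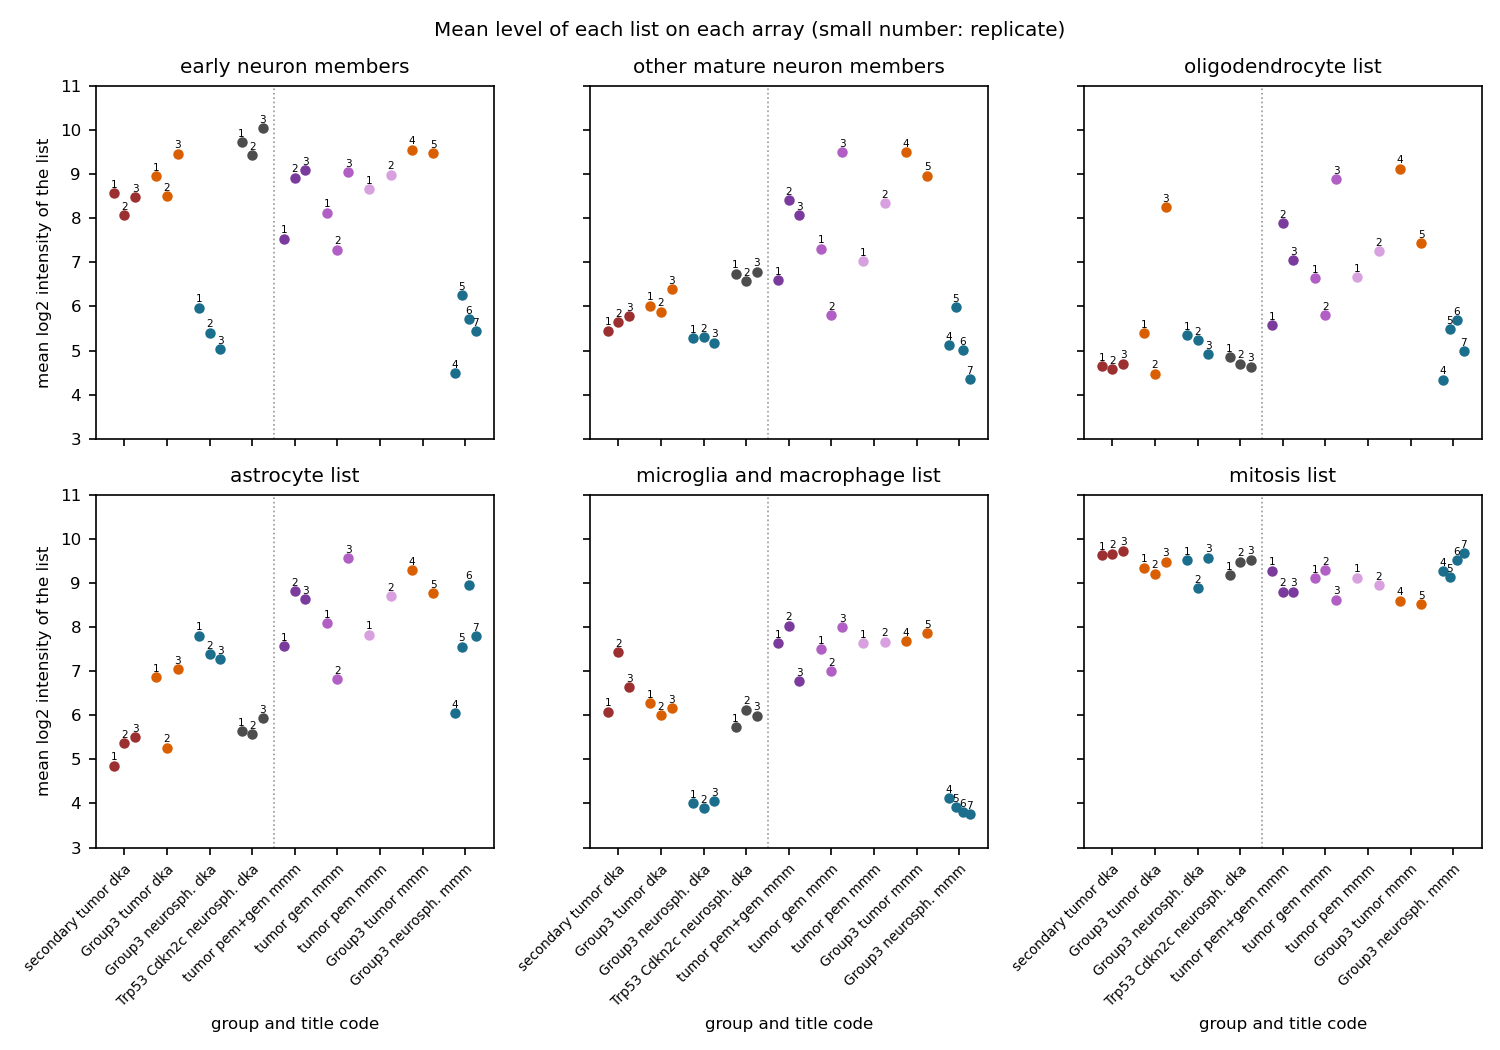
Mean log2 intensity over the genes of each list on each array (points, small numbers are replicates), by group and title code, dka left and mmm right of the dotted line. In mmm tumors the order of arrays by the mature neuron members (5.81 to 9.50) is close to their order by oligodendrocyte and astrocyte genes. The early neuron members vary in a similar order in mmm tumors (7.29 to 9.56) and are already high in dka tumors (8.50 to 9.47).

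Further neuronal genes outside the 33 moved in the same pattern, less clearly for postsynaptic and receptor genes in the neurosphere comparison. Of 15 measured neurogenic transcription factors 11 fell and 0 rose in Group3 neurospheres relative to Trp53 Cdkn2c neurospheres, and 12 rose in mmm tumors and 8 in dka tumors relative to Group3 neurospheres, with 0 falling. Insm1, a zinc finger factor of new neurons, fell by 6.44 in Group3 neurospheres (limma adjusted p = 7.92e-06) and rose by 6.22 in dka tumors (adjusted p = 2.67e-05). Of 21 genes of axon and neuronal cytoskeleton 13 fell and 2 rose in Group3 neurospheres, and 13 rose in mmm tumors and 11 in dka tumors with 0 and 1 falling. Stmn4, a relative of Stmn2, fell by 5.01 in Group3 neurospheres (limma adjusted p = 2.69e-06) and rose by 5.20 in mmm tumors (adjusted p = 7.68e-06). Of 22 presynaptic genes 9 fell in Group3 neurospheres, 20 rose in mmm tumors and 10 in dka tumors, among them Cplx1, a complexin of vesicle fusion, at 4.88 in mmm tumors (limma adjusted p = 2.32e-06) and 4.50 in dka tumors (adjusted p = 3.02e-06). Postsynaptic and receptor genes set the codes apart as the members did: of 16, 9 rose in mmm tumors and 1 in dka tumors. In Group3 neurospheres relative to Trp53 Cdkn2c neurospheres 1 of the 16 fell and 0 rose, a count near the 9.22% of all genes that fell. Their list mean was 5.26 to 5.36 in dka Group3 neurospheres and 5.53 to 5.98 in Trp53 Cdkn2c neurospheres. Of the 16, 10 were lower and 6 higher there, against 6853 of all 17097 genes lower. Gria3, an AMPA receptor subunit gene like Gria2, rose by 4.29 in mmm tumors (limma adjusted p = 0.0023), and its difference between the codes was 6.68 (adjusted p = 0.00493).

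Rest, the repressor that binds RE1 elements of neuronal genes, ran opposite to the early neuron members. It had 8.48, 8.63 and 8.55 in dka Group3 neurospheres, against 6.42, 5.96 and 7.37 in Trp53 Cdkn2c neurospheres (difference 1.98, SE 0.43, limma adjusted p = 0.00226). In mmm tumors it had 6.55 and 6.54, against 9.13, 8.40, 8.13 and 8.52 in mmm neurospheres (difference -2.00, SE 0.46, limma adjusted p = 0.00387). dka tumors had 5.18, 6.87 and 7.19 (difference -2.14 from dka neurospheres, SE 0.43, adjusted p = 0.00163), and secondary tumors 6.00, 4.90 and 5.64 (difference -3.04, SE 0.43, limma adjusted p = 4.66e-05). Every Group3 neurosphere array lay above every tumor array for Rest. Drug-treated tumors had 7.88, 7.46 and 8.06 under the combination, 7.66, 7.69 and 6.78 under gemcitabine and 7.02 and 7.28 under pemetrexed, all above the untreated mmm tumors, and no drug difference passed. Of 8 measured genes of the Rest repressor complex, 1 rose and 3 fell in Group3 neurospheres relative to Trp53 Cdkn2c neurospheres, and Rest was the one that rose.

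RefSeq promoter windows on build GRCm38.p6, from 250 bases before to 50 after each gene's start, were found for 22 of the measured members. They were searched on both strands for the parts of an RE1 element. The left part TCAGCAC occurred in 5.12% of all 32851 windows and in those of Gad1, Gad2, Pvalb, Scg2 and Tubb3, and the right part GGACAGC in 6.56% and in those of Cbln3, Gad2, Gria2, Map2, Pcp2, Pvalb, Scg2 and Tubb3. A joined form, AGCACC then GGACAGC with 2 free bases between them, occurred in 10 windows (0.0304%), among them those of Gad2 and Gria2. Of the left part it holds only the letters AGCAC. The form without the free bases, AGCACC directly followed by GGACAGC, occurred in 2 windows (0.00609%), 1 of them that of Scg2, and was spelled out after that window had been read. The E-box CAGATG of neurogenic factors occurred in 17.2% of windows and those of Elavl4, Gad2, Pcp2 and Slc17a6, and CAGCTG in 16.3% and those of Elavl3, Elavl4, Sv2a and Syt1. The whole left part TCAGCAC lies in the joined stretch of Scg2 only. The Gria2 window lacks it, and in Gad2 it lies apart from the joined stretch. The member windows that hold a joined form are shown, 5′ to 3′ on the gene's strand, with matches to the parts and joined forms in capitals. They lie at chr1:79440017-79440156 on the minus strand (Scg2, bases -130 to 10 from its start), chr3:80802906-80803045 on the minus strand (Gria2, bases -210 to -71) and chr2:22622137-22622276 on the plus strand (Gad2, bases -190 to -51).
Scg2: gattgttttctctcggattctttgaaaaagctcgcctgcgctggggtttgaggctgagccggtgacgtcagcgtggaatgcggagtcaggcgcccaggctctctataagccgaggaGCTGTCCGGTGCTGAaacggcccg
Gria2: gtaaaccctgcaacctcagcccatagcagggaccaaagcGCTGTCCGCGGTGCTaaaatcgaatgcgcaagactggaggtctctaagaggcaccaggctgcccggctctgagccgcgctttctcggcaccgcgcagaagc
Gad2: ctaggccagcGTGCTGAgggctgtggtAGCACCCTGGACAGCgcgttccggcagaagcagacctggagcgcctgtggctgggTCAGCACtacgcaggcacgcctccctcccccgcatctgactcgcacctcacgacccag
In mmm arrays all 3 genes rose in tumors relative to neurospheres, by 5.17 (Scg2), 6.14 (Gria2) and 2.02 (Gad2), where the Rest difference was -2.00. Most members rose there, 24 of 33 in all and 17 of 21 genes of other mature neurons. A part of Rest in these rises was not tested. In dka arrays the 3 genes differed from each other. Scg2 was low in dka Group3 neurospheres (3.68, 4.17 and 4.03), where Rest was high, and high in Trp53 Cdkn2c neurospheres (8.21, 6.35 and 8.16) and dka tumors. Gria2 had 8.62, 9.51 and 7.24 in the same Group3 neurospheres, above its level in secondary tumors (4.90, 5.89 and 6.36), where Rest was lowest on average. Gad2 stayed near 3.5 in Group3 neurospheres, Trp53 Cdkn2c neurospheres and dka tumors alike. A match is a run of letters in a window, and no binding was measured.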

How the data were processed

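Total RNA, extracted with Trizol and amplified with NuGEN Ovation Pico WTA V2 per the labels' protocols, was hybridised to Affymetrix HT MG-430 PM arrays. The authors deposited 1 table of log2 intensities, made by RMA in Partek 6.6 per the submitters' processing notes. Background, scaling between arrays and any step that differed between the title codes are not given in the sources used here. Of 45141 probe sets, 28898 carried 1 gene symbol in the platform annotation, and the brightest on average stood for each of 17097 genes.

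The 26 arrays entered 1 limma fit (limma 3.58.1, R 4.3.3) with 9 means, 1 for each group within a title code, and 10 comparisons. P values were adjusted by Benjamini-Hochberg over all genes of a comparison, and passed below 0.05. Standard errors are moderated. The fit was tested on simulated data. Per comparison, full values are given for up to 8 passing members with the largest differences in each direction, for members that go against their group and for those needed to account for it, and at most 3 passing genes are named per further list. The members and lists were chosen with earlier results of these data known. Alternatives were averaged probe sets, no dim genes (mean log2 under 5.937, which kept 23 members), quantile normalization, arrays of 1 code, a variance trend with robust fitting, a log2 difference of at least 1, and each array left out. The number of arrays limits the precision. Rest, Neurod1, Atoh1, Mbp, Mog and the mmm value of Stmn4 were chosen after their values were seen.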

Additional observations from a re-analysis of the deposited data

Results flagged for a closer look

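Among the 4 mmm Group3 neurospheres, 3 of 33 members had 1 array whose gap to the nearest other exceeded Dixon's critical value for 4 arrays. Nefl was 5.71 in replicate 5, next to 2.93 to 3.39 in the others. Calb1 was 3.26 in replicate 7, next to 3.94 to 4.01. Pcp2 was 3.34 in replicate 5, next to 3.54 to 3.56. Chance flags about 1 in 20 such groups. Replicate 5 also had the highest Elavl3 (6.15) and Neurod1 (8.93) of the 4.

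The tumor-minus-neurosphere difference was larger in mmm than in dka arrays for 8 members by the test of that difference in limma: Gad1 (9.43), Eno2 (8.06), Gria2 (7.19), Thy1 (6.76), Calb1 (6.58), Syt1 (5.25), Gap43 (2.83) and Gad2 (2.11). Over all probe sets the neurosphere means of the codes (mmm replicates 4 to 7) differed with an SD of 0.179 and the tumor means with 0.866. Among the members the neurosphere means differed by -0.67 to 0.40 and the tumor means by -1.43 to 9.27 (mmm minus dka). Whether a processing step brought the neurosphere means together is not given in the sources used here. Oligodendrocyte gene means were 9.13 and 7.44 in the mmm tumors and 5.40, 4.48 and 8.25 in the dka tumors, and astrocyte gene means 9.29 and 8.78 in the mmm tumors and 6.87, 5.27 and 7.05 in the dka tumors. Their part was not tested, and code and tumor set cannot be told apart.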

How the results depend on the processing

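No result reversed. In the comparison of dka tumors with Trp53 Cdkn2c neurospheres the count of 3 members became 5 with averaged probe sets, 5 with quantile normalization and 6 with dka arrays alone, and ranged from 1 to 3 with an array left out. Between secondary and primary tumors 0 became 1 with dka arrays alone (Scg2) and stayed 0 with any array left out. Leaving out 1 array gave 14 to 16 members for Group3 against Trp53 Cdkn2c neurospheres (16 in all), 11 to 15 for dka tumors against neurospheres (14), 18 to 26 for mmm (24), 12 to 14 for secondary tumors against neurospheres (12), 0 to 1 for pemetrexed, 0 to 3 for gemcitabine, 0 to 0 for the combination and 3 to 9 for the difference between codes (8). Of single member calls, 455 kept the call with an array left out and 55 lost it, and the cause was not tested. Requiring a log2 difference of at least 1 cut the genes called from 3865 to 2392 for Group3 against Trp53 Cdkn2c neurospheres, from 3172 to 1905 and from 3782 to 2420 for dka and mmm tumors against neurospheres, from 2668 to 1467 for dka tumors against Trp53 Cdkn2c neurospheres, from 4213 to 2534 for secondary tumors against neurospheres, and from 92 to 63 between tumors, where averaged probe sets gave 219, quantile normalization 141 and dka arrays alone 59. The 13 genes of the combination became 0 without dim genes, with quantile normalization or with mmm arrays alone. No paired analysis was possible because the replicate numbers follow the order of deposit and pair no arrays. Detection calls were not used here, so whether genes near or below the array medians, such as Gabra6, Cbln3, Pcp2 and Car8, were above background is not known.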
